A study of Drosophila melanogaster with 6 samples.

Results

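Klumpfuss (klu) and escargot (esg) encode zinc-finger transcription factors of the progenitor cells of the Drosophila midgut. Read counts from targeted DamID of Klu protein, not divided by Dam-only, were taken at peaks listed with both genes. The peaks described here are those that the deposited peak tables list with klu or esg. Each gene had 1 peak in the coherent set and 1 in the semicoherent set, so 2 of 1122 coherent and 2 of 1250 semicoherent peaks are covered. The names coherent and semicoherent are the study's names for peak sets combined over replicates, and the sources used here do not say how they differ. The series held 3 Klu-Dam libraries (genotype esgts, UAS-Flp, UAS-Klu Dam) and 3 Dam-only libraries (esgts, UAS-Flp, UAS-Dam control). Flies of both groups were reared at 18 °C and shifted for 24 h to switch on the methylase, with replicate sets taken on different dates. The sample descriptions give pools of 30 to 40 midguts per replicate, where the study's methods give a higher upper limit. All values below are read counts of the 3 Klu-Dam libraries, since Dam-only counts were not used here.

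Intestinal stem cells of the fly midgut divide to give enteroblasts, which become enterocytes, and enteroendocrine cells. Escargot belongs to the Snail family of repressors, which bind E-box sequences, and it keeps stem cells and enteroblasts undifferentiated. Klumpfuss is a relative of the mammalian WT1 protein, is found in enteroblasts and was studied here for its part in the choice of cell fate. DamID joins a bacterial adenine methylase (Dam) to a protein, which then leaves methyl marks on GATC sites close to where that protein sits on DNA. Methylated fragments are then cut, amplified and sequenced.

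The driver limits what each library can show. In the study's methods, esg-Gal4 with a temperature-sensitive Gal80 drives a recombinase, which removes a stop cassette in front of Dam, so the marks come from Esg-positive cells and from cells born of them during the shift. DNA was taken from whole midguts. DamID counts carry no expression values, so the labelled cell type could not be checked against its markers. The Klu-Dam fusion was built from a full-length klu cDNA, so Klu-Dam flies carry the klu coding sequence a further time in the transgene, and Dam-only flies do not.

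The klu peak (FBgn0013469, minus strand) lay at chr3L:10983242-10984062 of the dm6 build, and the esg peak (listed as FBgn0001981 and matched to the reference by symbol, plus strand) at chr2L:15334876-15336749. The stretches that follow are reference sequence from within these peaks, each read in the direction of its own gene and each wholly coding. They are shown because both peaks hold the same 7 letters of a WT1-type core (GTGGGTG) and because GATC sites set where a DamID peak can begin and end. Capitals mark GATC sites and the motif matches. In the esg stretch CACCCAC is the core read from the opposite strand and CAGGTG is a Snail-type E-box.
klu chr3L:10983240-10983330: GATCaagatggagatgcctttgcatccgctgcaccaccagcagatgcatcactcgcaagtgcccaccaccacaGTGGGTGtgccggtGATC
klu chr3L:10983611-10983908: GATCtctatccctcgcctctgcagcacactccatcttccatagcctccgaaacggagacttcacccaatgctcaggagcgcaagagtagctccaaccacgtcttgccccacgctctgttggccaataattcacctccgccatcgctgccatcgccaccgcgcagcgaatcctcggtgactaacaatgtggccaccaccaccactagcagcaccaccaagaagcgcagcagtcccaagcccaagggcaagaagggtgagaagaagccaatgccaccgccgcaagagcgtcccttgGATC
esg chr2L:15335068-15335231: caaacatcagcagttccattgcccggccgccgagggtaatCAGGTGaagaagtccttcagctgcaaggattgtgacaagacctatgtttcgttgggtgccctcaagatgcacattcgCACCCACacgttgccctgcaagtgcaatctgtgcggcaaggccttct
esg chr2L:15335318-15335460: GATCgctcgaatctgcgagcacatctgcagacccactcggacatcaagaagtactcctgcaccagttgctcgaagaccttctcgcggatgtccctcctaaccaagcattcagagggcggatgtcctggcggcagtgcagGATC

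The first klu stretch is the GATC fragment at the end of the peak nearer to the stop codon and codes for residues 524 to 554 of Klu. The second is the longest fragment of the klu peak and codes for residues 332 to 431. The first esg stretch codes for residues 325 to 380 and the second, a whole GATC fragment, for residues 409 to 456.

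The klu peak sat entirely in coding sequence. It covered 821 bp of the last and largest exon of klu, from 839 to 1659 bases after the start of the start codon, and every base of it was coding. The coding sequence in question has 2409 bases and gives a protein of 803 residues, which 3 of 4 annotated klu transcripts encode. Between the listed gene start and gene end it ran from 7.49% to 10.5% of the span counted from the lower coordinate, which for a gene on the minus strand is the 3′ part. Its midpoint lay 25181 bp from the nearest transcript start of klu. No other peak of either set overlapped the 28.0 kb of the gene, so its first exons and introns held none.

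The klu coding sequence has 14 GATC fragments that lie wholly inside it, and the peak was made of 5 of them, with lengths from 56 to 294 bp. The other 9 had lengths from 30 to 239 bp and a median of 52 bp, against 100 bp for those in the peak. The 4 C2H2 zinc fingers of Klu, the part of the protein that contacts DNA, were found by pattern at residues 592 to 613, 628 to 648, 656 to 676 and 684 to 704. The peak covered residues 280 to 554 and so ended before all 4 fingers. Because the whole peak is coding, reads from the gene itself and from the cDNA in the transgene cannot be told apart in these counts.

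The esg peak took in the 3′ part of the gene and the sequence after it. Of its 1874 bp, 33.7% were coding, 33.7% were 3′ UTR and 32.6% lay beyond the annotated end of the gene, a stretch of 611 bp. It began 782 bases after the start of the start codon and covered 44.5% of the 1410 coding bases, residues 261 to 470 of a protein of 470. The pattern search found 4 C2H2 fingers in Esg, from residue 311 to residue 420, and all 4 of these were encoded inside the peak. The pattern requires a histidine at its last position, so a finger that ends in cysteine would be missed. The midpoint lay 1946 bp after the transcript start. The gene held 7 GATC sites up to and including the one at which the peak begins. Neither peak overlapped another annotated gene, the nearest being the non-coding RNA gene lncRNA:CR45745, 4940 bp from the klu peak, and nht, 15975 bp from the esg peak.

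**Figure D1:**
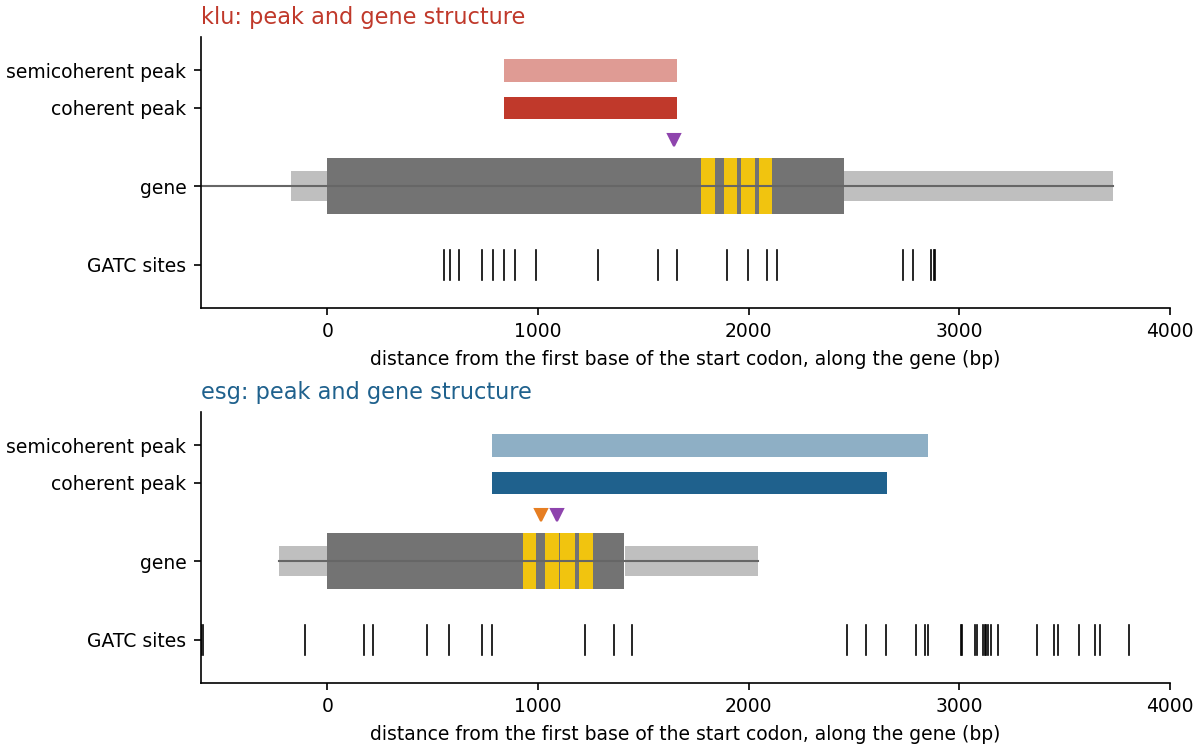
Gene structure and peaks at klu (upper panel) and esg (lower panel), plotted in bases from the start codon along each gene, with coding sequence as dark boxes, UTRs as light boxes, C2H2 fingers in yellow, GATC sites as ticks, the WT1-type core as a purple triangle and the E-box as an orange one. The klu peak (839 to 1659) ends before the fingers, whereas the esg peak (782 to 2655) takes in all 4 found by pattern and runs past the gene.

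The klu peak was among the shallower peaks. It held 552, 553 and 658 reads in replicates 1, 2 and 3 of Klu-Dam, with exact 95% Poisson intervals of 507 to 600, 508 to 601 and 609 to 710. On these raw counts, not scaled to library depth, the intervals of replicates 1 and 2 overlapped and that of replicate 3 lay above both. Amplified reads are not independent molecules, so such intervals cover counting error only. As a share of the reads in coherent peaks these counts were 28.3, 30.2 and 35.9 CPM (counts per 1000000 reads in the peaks of the set), with a mean of 31.5 ± 3.94 CPM (SD, n = 3). By mean CPM the peak ranked 1044 of 1122, and per kb of width, at 38.3 ± 4.80 CPM per kb (SD, n = 3), it ranked 937. It was also a narrow peak, with 8.91% of coherent peaks narrower.

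The esg peak was deeper in each library. It held 17365, 18044 and 25212 reads in replicates 1, 2 and 3 (exact 95% Poisson intervals 17108 to 17625, 17782 to 18309 and 24902 to 25525), which came to 889.5, 987 and 1374 CPM. Replicate 3 was again the highest, and all 3 intervals, taken on raw counts not scaled to library depth, were apart. The mean was 1083 ± 256 CPM (SD, n = 3), rank 166 of 1122. Per kb it was 578 ± 137 CPM per kb (SD, n = 3), rank 162. The median coherent peak held 97.6 CPM per kb, with quartiles of 48.7 and 276, so klu lay below the lower quartile and esg above the upper one.

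Within each library the esg peak held 13.8, 14.3 and 16.8 times the reads per kb of the klu peak in replicates 1, 2 and 3. The log2 ratio was 3.90 ± 0.15 (SD, n = 3), higher at esg in 3 of 3 libraries. An exact two-sided permutation test over libraries gave p = 0.25, the smallest that 3 libraries allow. Counts are not divided by the Dam-only signal, and a deeper peak by count is not thereby a larger ratio of Klu-Dam over Dam-only. Of GC content, a property the choice of genes did not use, the klu peak had 58.0%, above 98.5% of coherent peaks, and the esg peak had 40.5%, above 13.8% of them. The part of GC content in the depth of either peak was not tested.

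**Figure D2:**
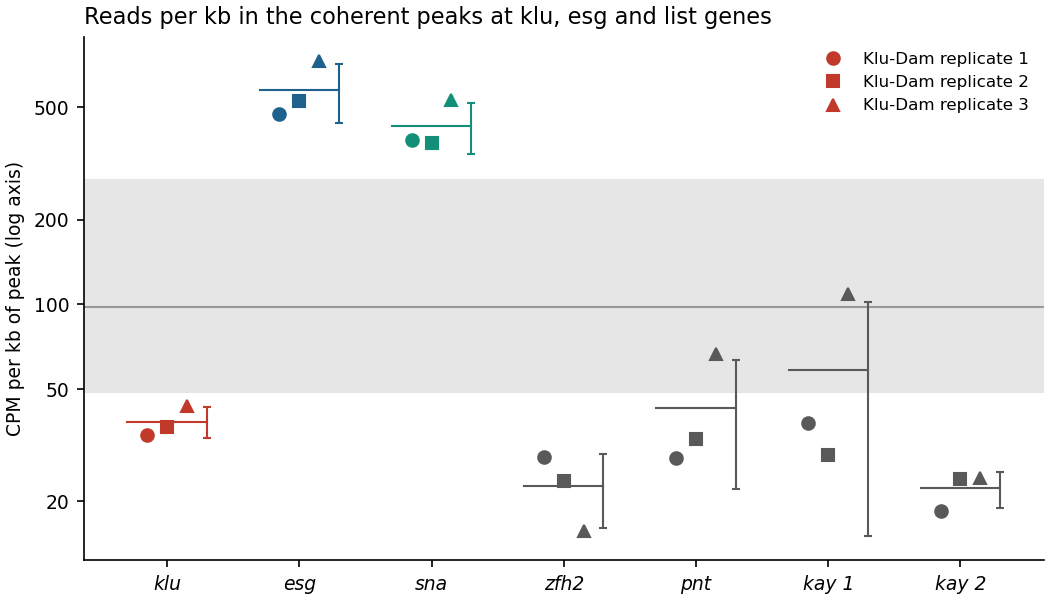
Reads per kb in coherent peaks (CPM per kb of peak, log axis) for klu, esg and the list genes sna, zfh2, pnt and kay, with each Klu-Dam replicate as a symbol, the mean as a line and the SD (n = 3) as a bar. The grey band is the quartile range of all coherent peaks (48.7 to 276) with its median as a line, and the klu values sit below the band while the esg and sna values sit above it.

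The spread of both peaks between libraries was ordinary for this peak set. The coefficient of variation over the 3 libraries was 12.5% at klu and 23.7% at esg, and the median over all coherent peaks was 16.7%. On the log2 scale of CPM, replicate 2 exceeded replicate 1 by 0.10 at klu and 0.15 at esg, and replicate 3 exceeded it by 0.34 and 0.63. Over all coherent peaks these differences had an SD of 0.27 for replicate 2 and 0.61 for replicate 3, and both genes lay within 1 SD of the median peak. Without replicate 3 the coefficient of variation was 4.75% at klu and 7.33% at esg. Scaled instead to 1000000 reads of the whole library, klu held 15.8, 16.5 and 19.3 reads and esg 498, 539 and 739, in the same order of libraries.

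**Figure D3:**
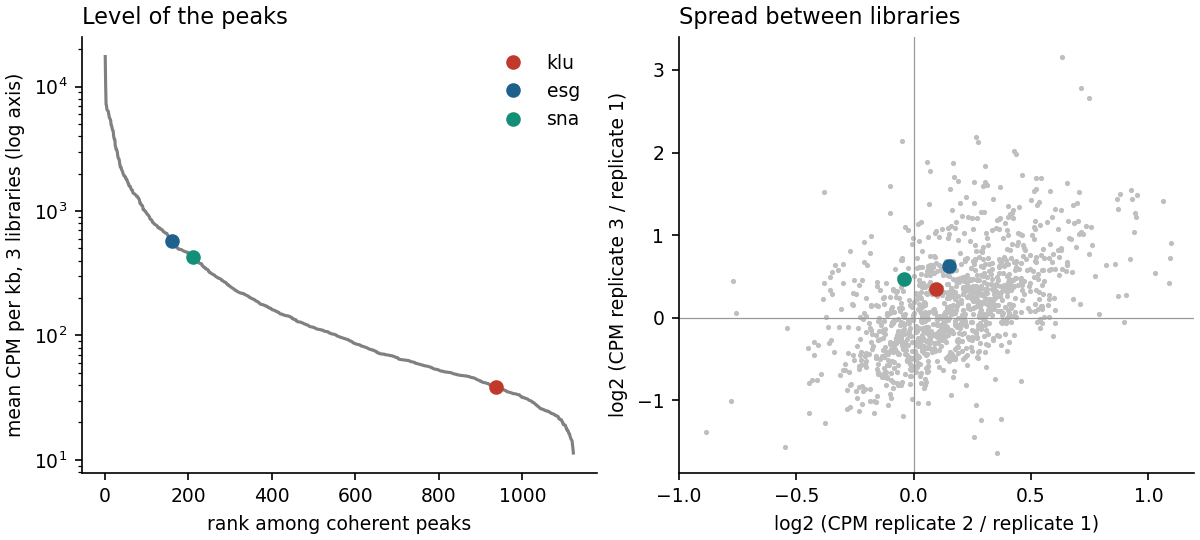
Left, mean CPM per kb (log axis) of the 1122 coherent peaks by rank, with esg at rank 162, sna at 212 and klu at 937. Right, log2 ratios of CPM in replicates 2 and 3 over replicate 1 for the same peaks, where all 3 named genes have a replicate 3 value above replicate 1 (0.34 at klu, 0.63 at esg, 0.47 at sna) and lie inside the cloud of other peaks.

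Between the peak sets, esg differed and klu did not. The klu peak had the same edges and counts in both sets. The semicoherent esg peak ended 197 bp further from the gene, at 15336946, and held 17372, 18047 and 25228 reads. The added 197 bp thus brought 7, 3 and 16 reads. That was 35.5, 15.2 and 81.2 reads per kb, where the coherent peak itself held 9266, 9629 and 13454 reads per kb. Averaged over libraries the added sequence had 0.382% of the density of the peak. Among the 233 coherent peaks that a semicoherent peak contains and exceeds, the median was 2.72% with a lower quartile of 0.562%, and esg ranked 48 from the lowest. The sources used here do not say how reads over an edge were counted, and reads that touch both intervals would be missing from such a difference.

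Sequence motifs were searched in both peaks on both strands. The study's own scan used published weight matrices of the Klu site, which were not applied here. The motifs were a WT1/EGR-type site (GCGNGGGCG), its core (GTGGGNG, which the longer site contains when its N is T), a Snail-type E-box (CAGGTG, itself a case of the general E-box CANNTG) and a Su(H)-type site (NGTGGGAA), Su(H) being the DNA-binding factor of Notch signalling. The long WT1/EGR-type site and the Su(H)-type site had no match in either peak. They were present in 9.45% and 18.9% of coherent peaks. Of consecutive windows along the chromosome arms, 2.24% and 9.95% held them at 821 bp, and 5.02% and 21.3% at 1874 bp. Each peak held 1 match to the core, with the letters GTGGGTG in both cases. At klu it lay at chr3L:10983251-10983257, 9 bases inside the edge of the peak. At esg it lay at chr2L:15335185-15335191, in the second of the 4 fingers found. The core is common, with a match in 65.2% of coherent peaks, in 34.3% of consecutive windows of 821 bp and in 60.2% of windows of 1874 bp along the chromosome arms.

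The Snail-type E-box occurred 1 time in the esg peak, at chr2L:15335108-15335113 between the first and second fingers, and had no match in the klu peak. It was present in 60.3% of coherent peaks, 27.6% of windows of 821 bp and 51.1% of windows of 1874 bp. E-boxes of any kind numbered 4 in the klu peak and 8 in the esg peak, and 98.9% of coherent peaks held at least 1. With 500 bp added to either side, klu gained 2 Snail-type E-boxes and 2 core matches, all on the side of the zinc fingers, and esg gained 1 core match. Of consecutive windows of 1821 bp, the widened width at klu, 50.1% held a Snail-type E-box and 59.1% a core match. At 2874 bp, the widened width at esg, 74.3% held a core match. A match is a description of letters only, and its absence from these peaks or their widened windows says nothing about the factor.

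Peaks inside a single coding exon, as at klu, were a small class. Of the coherent peaks 51, or 4.55%, lay wholly in 1 coding exon. Their median width was 894 bp and their median GC content 54.6%, against 1723 bp and 45.1% for the others. Their median level was 72.5 CPM per kb, against 98.5 for the others, and klu ranked 46 of the 51 by CPM per kb, 10 by GC content and 31 by width.

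The other peaks near the members were few. The klu peak was 54.4 kb from the next coherent peak on the side of the promoter and 1124 kb from the nearest on the other side, where the median gap between neighbouring peaks was 47.9 kb. No coherent peak lay within 50 kb of it. The esg peak was 32.6 kb from a peak listed with CG15262 (FBgn0028852), which held 9121, 8522 and 8717 reads, or 469 ± 4.94 CPM (SD, n = 3). On the other side the next coherent peak was 141 kb away, and it was the peak of snail (sna), the gene that names the family to which esg belongs.

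The sna peak (FBgn0003448, minus strand, chr2L:15478178-15480329) held 16115, 14673 and 20993 reads, or 825, 802 and 1144 CPM. As at esg, replicate 3 was the highest library. Its mean was 924 ± 191 CPM (SD, n = 3). Per kb the esg peak held 1.24, 1.41 and 1.38 times the reads of the sna peak, a log2 ratio of 0.42 ± 0.10 (SD, n = 3) and higher at esg in 3 of 3 libraries, with an exact two-sided permutation p of 0.25, again the smallest possible. In position they differed, since 96.1% of the sna peak lay upstream of the gene and 3.86% in its 5′ UTR. The sna peak ranked 7 of 1121 in likeness of read level to the esg peak, by Euclidean distance of log2 CPM over the 3 libraries (0.41). That distance takes CPM per peak, not per kb, and is no measure of kinship between the genes.

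The same measure names the peaks most like each member over these 3 libraries, which says nothing of shared function. For klu they were the peaks closest to drm (distance 0.16, with 605, 532 and 625 reads), Best1 (0.17) and Reph (0.19). For esg they were those closest to Spt20 (0.26, with 18698, 18227 and 21389 reads), CG2059 (0.29) and CG8791 (0.31).

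Related factors were then looked up, from lists of 34 genes in all with klu and esg among them. Besides klu and esg, 4 of the remaining 32 (12.5%) were listed with a coherent peak, and 11.3% of 13945 annotated protein-coding genes were. In the semicoherent set the same 4 genes were listed, against 12.6% of protein-coding genes. So by listing in either set the share among related factors was near that of all genes, although the 32 were long, with a median of 11.3 kb against 2.17 kb. At a listed distance of 0 it was 12.5% against 8.08%. By overlap of gene bodies with a peak in the reference it was 15.6% against 9.99%. These differences were not tested. Of the 4 Snail family genes, esg and sna were listed, while wor and scrt were not. Of the 2 genes of the EGR/WT1 type, klu was listed and sr was not. None of 7 neuroblast factors (dpn, ase, wor, erm, grh, pros and ham) was listed, a count too small to be set apart from the share of all genes, and the difference was not tested.

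Among 22 regulators of midgut progenitors, zfh2, pnt and kay were listed. The peak of pnt, an ETS factor downstream of EGFR signalling, lay wholly in an intron and held 972, 1070 and 2135 reads. The kay gene, which encodes the Fos subunit of AP-1, had 2 peaks. The one at chr3R:29773656-29775634 held 1468, 1056 and 3951 reads and had the widest spread of the list peaks, with a coefficient of variation of 74.4%. The one at chr3R:29780299-29782044 held 627, 767 and 775 reads. The peak of zfh2, a zinc-finger homeodomain factor, held 1085, 835 and 556 reads and was the only one of these with its lowest value in replicate 3. Per kb the peaks of zfh2, pnt and kay had means from 22.2 to 58.7 CPM per kb, the range in which klu lay, and all 4 were below the esg and sna peaks in each of the 3 libraries.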

How the data were processed

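The members, motifs and gene lists were chosen with earlier results of these data known. Per the study's methods, the authors aligned single-end reads to dm6 with bowtie2 in damidseq_pipeline, called peaks on the log2 ratio over Dam-only and attached genes with their own script, and listed distances reach 2 kb. What the authors deposited is a count of reads in each peak for the 3 Klu-Dam replicates, without scaling of any kind. How reads were counted is not given in the sources used here. Sums over coherent peaks were 19521921, 18287201 and 18347327 reads in replicates 1, 2 and 3.

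After 2 repeated entries per table were dropped, starts were set to GATC sites and given 1-based. CPM used the sum over peaks of the set. Genes were matched by symbol or identifier to Ensembl BDGP6, whose coordinates are those of dm6, and sequence came from the RefSeq Release 6 genome, where 1122 of 1122 coherent peak ends, which were not moved, fell on GATC. C2H2 fingers were searched in the translated coding sequence. Replicates were pools of midguts taken on different dates. The exact permutation tests flip signs over these libraries, and 3 ratios of the same sign give p = 0.25 whatever their spread. Alternatives were scaling (size factors, and whole-library totals taken from the study), peak set, width measure, gene distance, motif window and left-out replicates. Genes named were klu and esg, listed genes within 50 kb, the 3 most similar peaks each, and listed members of the lists. The steps ran in Python 3.11.15 with biopython 1.88 for sequences, numpy 2.4.6 for exact tests, scipy 1.17.1 for exact intervals, and pandas 2.3.3. On simulated data only the motif search, the spread of log2 ratios and the search for similar peaks were tested. No columns of sample values were left out.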

Additional observations from a re-analysis of the deposited data

How the results depend on the processing

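No paired analysis was possible because Klu-Dam was the only group with counts here, so no pairing with Dam-only could be made. Ratios between peaks were taken within each library. Scaled to the library totals of the study, the mean level per 1000000 reads was 17.2 at klu and 592 at esg, lower than the CPM values by construction, since all reads of a library are then in the denominator. Median-of-ratios size factors (31.4 and 1080.2 CPM) and the semicoherent set (29.1 and 1002 CPM) moved both by less than 1 SD. Leaving out each replicate in turn gave 29.3 to 33.1 CPM at klu and 938 to 1180.4 CPM at esg. The log2 ratio of esg over klu was 5.09 per peak, 4.82 per GATC fragment and 3.75 per kb in the semicoherent set, and 3.81 to 3.95 without each replicate, with exact p of 0.5 from 2 libraries. Without each replicate the coefficient of variation ran from 4.75% to 16.7% at klu and from 7.33% to 30.3% at esg. Of the 32 related genes 4 (12.5%) had a listed distance of 0, against 8.08% of protein-coding genes. In the reference 5 overlapped a peak (15.6% against 9.99%), and 6 lay within 2 kb by the nearer edge (18.75% against 15.2%). In widened windows core matches numbered 3 at klu and 2 at esg, Snail-type E-boxes 2 at klu, and E-boxes of any kind 13 and 16.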

Other observations

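On the lists of related factors, Ets21C and GATAe lay at or near coherent peaks without being listed with them. Ets21C (FBgn0005660, 2L), a stress-induced ETS factor, overlapped the peak at chr2L:544077-545873, which the tables list with Spp, nAChRbeta3 and lwr. That peak held 770, 765 and 585 reads, or 21.0 ± 2.89 CPM per kb (SD, n = 3), rank 1093 of 1122. A second peak, at chr2L:554543-555381 and listed with rempA, lay 1620 bp from Ets21C and held 2403, 3454 and 3767 reads, or 205.5 ± 51.9 CPM per kb (SD, n = 3). GATAe (FBgn0038391, 3R), a GATA factor of the gut endoderm, lay 1381 bp from the peak at chr3R:16006498-16007724, which is listed with CR42839 and held 792, 834 and 898 reads, or 36.7 ± 3.44 CPM per kb (SD, n = 3). These genes were named after their values were seen.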
